A study of Oryctolagus cuniculus with 6 samples.

Results

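The ocular surface glycocalyx was examined in primary limbal stem cells (LSCs) through 8 of the 22190 genes in the count table. They are the membrane mucins MUC1, MUC4, MUC15, MUC16 and MUC20, the galectin LGALS3, and SPDEF and AGR2, which belong to the program of mucus-secreting goblet cells. The genes were chosen by symbol and all 8 were in the table. Of these, 6 passed the filter on low counts and were tested, whereas MUC16 and SPDEF did not pass.

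The cells grew out of rabbit limbal explants in keratinocyte medium and were sequenced as polyA RNA, 3 libraries from fresh and 3 from preconditioned tissue. For the preconditioned libraries the corneas had been stored for 7 days in liquid nitrogen, in a cryomedium holding DMSO, serum and 10 ng/mL IL-1β. The fresh tissue was neither frozen nor exposed to IL-1β, so that freezing and IL-1β cannot be told apart. Strain, age and the animal behind each library are not given in the sources used here.

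Membrane mucins are large, heavily O-glycosylated proteins that span the apical membrane of corneal and conjunctival epithelial cells. Their long extracellular stalks form a wettable, anti-adhesive barrier below the tear film, and galectin-3 cross-links their glycans into a lattice. MUC1, MUC4 and MUC16 are the best known of them at the ocular surface, and they are typically carried by differentiated surface cells. Goblet cells of the conjunctiva secrete gel-forming mucins instead, under the transcription factor SPDEF and with the help of AGR2, a protein disulphide isomerase of the endoplasmic reticulum.

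Libraries held 31952352 to 34327534 counts on genes, and TMM factors ran from 1.06 to 1.07 (fresh) and from 0.914 to 0.965 (preconditioned). Counts of libraries within a group differed by more than sampling noise, with a chi-square per degree of freedom of 48.1 to 147. Of the 10 markers listed for corneal and limbal epithelium, 7 were in the table, and KRT5, the basal keratin, was at 7333 to 11735 CPM. CPM here are counts relative to the TMM-scaled library total. TP63, a transcription factor of limbal progenitors, was at 226 to 246 CPM in fresh LSCs and at 183, 122 and 112 CPM in preconditioned LSCs, without overlap (edgeR, log2 fold change −0.77, adjusted p = 0.059). EPCAM, an epithelial adhesion molecule of the same list, was at 77.5 to 91.7 CPM and at 102 to 126 CPM, also without overlap (edgeR, log2 fold change 0.50, adjusted p = 0.060), and PAX6 had a log2 fold change of 0.81 (edgeR, adjusted p = 0.11). CDH1 and KRT15 of this list had log2 fold changes of −0.07 and 0.18 (edgeR, adjusted p = 0.77 and 0.92). None of the 7 markers was called, with 3 positive and 4 negative log2 fold changes. For comparison, the groups did not overlap for 36.7% of all tested genes. The markers KRT12, KRT14 and ALDH3A1 are not in the table under these names. Stromal markers were present in every library, with a summed level of 529 to 1144 CPM (fresh) and 1298 to 2321 CPM (preconditioned). The summed level of 4 melanocyte markers was at most 0.395 CPM, and that of 4 vascular endothelial markers was 1.06 to 13.0 CPM, nearly all of it PECAM1.

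Galectin-3 was the only one of the 6 tested genes that passed the cutoffs, and it rose about 2.14-fold after preconditioning. LGALS3 was at 492, 485 and 606 CPM in the fresh libraries and at 857, 1287 and 1243 CPM in the preconditioned libraries. All 3 preconditioned libraries lay above all 3 fresh ones, as was the case for 17.9% of all tested genes. Of the 6 tested members 2 had groups that did not overlap, against 36.7% of all tested genes. Preconditioned replicate 1 was the closest to the fresh group for LGALS3. The group means were 528 ± 67.9 and 1129 ± 236 CPM (SD, n = 3 each). The log2 fold change was 1.10 with a standard error of 0.19 and a 95% confidence interval from 0.66 to 1.54 (edgeR, adjusted p = 0.037). Across all 15029 tested genes, 2.29% were called and 1.08% were called higher, against 1 of the 6 tested members. For lower calls the background was 1.2% and none of the 6 was called lower, and 3 of the 6 had a positive log2 fold change, against 50.5% of all tested genes.

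The call for LGALS3 lay close to the cutoffs on both fold change and adjusted p. Its log2 fold change stayed between 0.91 and 1.25 under 15 alternatives, with edgeR, DESeq2 or limma adjusted p values from 2.3e-05 to 0.14. The call was lost under 9 of them, including the replicate block (adjusted p = 0.078) and the removal of any library except preconditioned replicate 1. Calls over all genes also fell in these fits, from 344 to 30 with the replicate block and to 14 to 72 with those removals. When libraries were scaled by their totals without TMM, LGALS3 kept an adjusted p of 0.034 but had a log2 fold change of 0.92, while the median over all tested genes moved from 0.01 to −0.16.

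Galectin-3 is also made by fibroblasts and macrophages, so markers of both were read beside it. Among 10 stromal markers COL1A1 was called higher and the other 9 were not called, with fresh levels of COL1A1 at 56.8 to 109 CPM and preconditioned levels at 504 to 692 CPM. The stromal list had 6 positive and 4 negative log2 fold changes, with KERA, the keratocyte proteoglycan keratocan, at −1.27 and DCN, decorin, at −0.13. Over all tested genes, 1.08% were called higher and 50.5% had a positive log2 fold change. COL1A1 had a mean of 91.2 CPM in fresh LSCs and 578 CPM in preconditioned LSCs, which was the greater part of the difference in the stromal sum. Of the 6 leukocyte markers in the table, 4 were tested and none was called. CD68, a lysosomal protein abundant in macrophages, was at 93.4 to 129 CPM in fresh LSCs and at 121, 299 and 288 CPM in preconditioned LSCs (edgeR, log2 fold change 1.14, adjusted p = 0.085). CD14 of the same list was at 4.39 to 7.82 CPM and at 3.59, 11.4 and 2.37 CPM (edgeR, log2 fold change 0.02, adjusted p = 0.98). CSF1R had a fresh mean of 1.43 CPM and preconditioned levels of 0.669, 4.73 and 1.32 CPM (edgeR, log2 fold change 0.64, adjusted p = 0.55). In preconditioned replicate 3, CD68 was thus above every fresh library, whereas CD14 was below every fresh library. PTPRC, which marks all leukocytes, had between 7 and 17 counts in fresh LSCs, then 9, 47 and 9 counts in preconditioned LSCs, and CD3E, a marker of T cells, had at most 1 count. Whether stromal cells or leukocytes contributed to the LGALS3 difference was not tested, and in bulk RNA a change in cell numbers cannot be told apart from a change of RNA per cell.

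**Figure D1:**
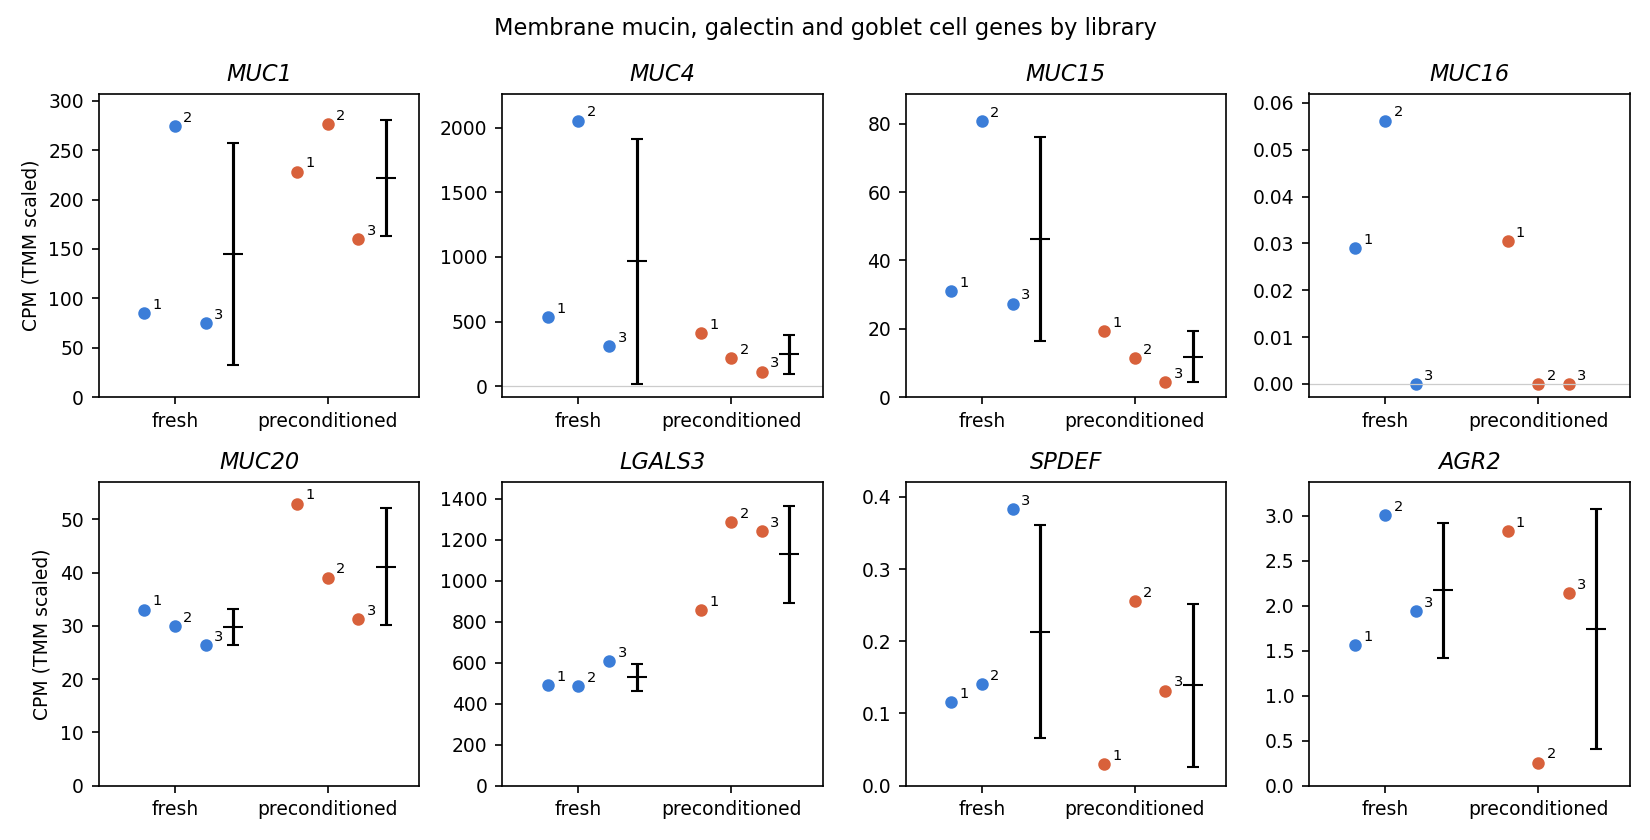
CPM after TMM scaling for each of the 8 genes, on linear axes. Each point is 1 library with its replicate number, and the black bar is the group mean ± SD (n = 3), left out for MUC16 because no library exceeded 2 counts. The groups are separated for LGALS3 and MUC15, where 36.7% of all tested genes were separated in either direction. Fresh replicate 2 stands high for MUC1, MUC4 and MUC15 but not for MUC20 or LGALS3.

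MUC4 and MUC15 had the lowest fold changes among the members, although neither passed the cutoffs. MUC4, the large mucin that also binds ERBB2, was at 536, 2054 and 309 CPM in the fresh libraries. In the preconditioned libraries it was at 412, 219 and 114 CPM. Fresh replicate 2 was 4.86 times the mean of the other fresh libraries, and preconditioned replicate 1 lay above fresh replicate 3, so that the groups overlapped. The log2 fold change was −1.96 with a standard error of 0.79 and a confidence interval from −3.83 to −0.09 (edgeR, adjusted p = 0.15). Without fresh replicate 2 the log2 fold change was −0.77 (edgeR, adjusted p = 0.43), and without preconditioned replicate 1 it was −2.55.

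MUC15, a smaller membrane-bound mucin, was at 30.9, 80.8 and 27.4 CPM in the fresh libraries and at 19.4, 11.4 and 4.51 CPM in the preconditioned libraries. Each preconditioned library lay below each fresh library, as was also the case in either direction for 36.7% of all tested genes. Its log2 fold change was −1.98 with a standard error of 0.62 and a confidence interval from −3.46 to −0.49 (edgeR, adjusted p = 0.094). With DESeq2 the log2 fold change was the same to 2 decimals and the adjusted p was 0.0035, which passed the cutoffs. Without fresh replicate 2 the edgeR value was −1.31 (edgeR, adjusted p = 0.24). In the RefSeq gene list MUC15 overlaps ANO3, which was at 0.256 to 0.956 CPM. MUC16 likewise overlaps MBD3L1, and AGR2 overlaps LOC127487332. Strand was not stated for the counting, and whether these overlaps affected the counts was not tested.

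The keratin KRT3, which marks differentiated corneal epithelium, was read beside these mucins. It was at 960, 2654 and 409 CPM in the fresh libraries and at 800, 239 and 697 CPM in the preconditioned libraries, with overlapping groups. The log2 fold change of KRT3 was −1.21 with a standard error of 0.72 (edgeR, adjusted p = 0.30). Fresh replicate 2 was 3.88 times the mean of the other fresh libraries for KRT3, as against 4.86 times for MUC4, 3.43 times for MUC1 and 2.77 times for MUC15. For MUC20 and LGALS3 this ratio was 1.01 and 0.884. The part of epithelial differentiation in the mucin differences was not tested.

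MUC1, the transmembrane mucin with a signalling cytoplasmic tail, had a fold change of the opposite sign to those of MUC4 and MUC15, and it was not called. It was at 85.2, 274.5 and 74.8 CPM in the fresh libraries and at 228, 277 and 160 CPM in the preconditioned libraries. The groups overlapped only through fresh replicate 2. For MUC1 the log2 fold change was 0.61, with a standard error of 0.52 and a confidence interval from −0.62 to 1.85 (edgeR, adjusted p = 0.45). Without fresh replicate 2 it was 1.47 (edgeR, adjusted p = 0.12).

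MUC20, which interacts with the receptor MET, was at 33.1, 29.9 and 26.3 CPM in the fresh libraries and at 53.0, 39.1 and 31.3 CPM in the preconditioned libraries. Only preconditioned replicate 3 fell within the fresh range. For MUC20 the log2 fold change was 0.47, with a confidence interval from −0.02 to 0.95 (edgeR, adjusted p = 0.17). MUC20 lies next to MUC4 in the RefSeq gene list of mOryCun1.1. The neighbours differed in their spread, since the highest library was 18.1 times the lowest for MUC4 and 2.01 times for MUC20.

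**Figure D2:**
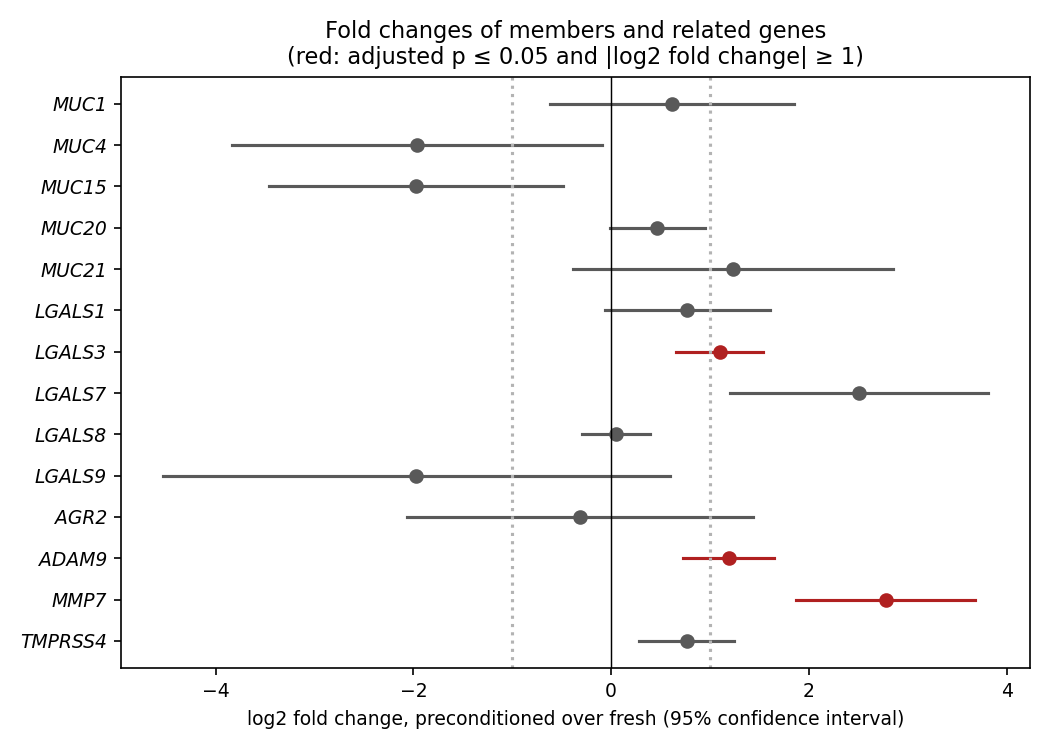
Log2 fold changes of preconditioned over fresh libraries from edgeR, with 95% confidence intervals, for 6 members and for related genes. LGALS3, ADAM9 and MMP7 are called and drawn in red, and dotted lines mark the cutoffs of −1 and 1. The interval of MUC4 runs from −3.83 to −0.09 and that of LGALS8 from −0.30 to 0.39.

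On the scale per gene length, LGALS3 was far above the mucins. Its mean was 749 ± 99.8 FPKM in fresh and 1421 ± 272 FPKM in preconditioned LSCs (SD, n = 3 each), ranking 98 and 46 among all 22190 genes. In the fresh group MUC4 followed at 87.1 ± 85.6 FPKM and MUC1 at 61.2 ± 47.5 FPKM, a difference well within their spread. MUC15 at 12.7 ± 8.15 FPKM and MUC20 at 7.83 ± 0.848 FPKM were also not separated, and AGR2 followed at 2.67 ± 0.924 FPKM. In the preconditioned group the order was MUC1 at 83.1 ± 20.5 FPKM, MUC4 at 20.0 ± 12.6 FPKM and MUC20 at 9.65 ± 2.73 FPKM. MUC15 at 2.87 ± 1.87 FPKM and AGR2 at 1.93 ± 1.49 FPKM were the lowest of the 6 tested members and overlapped (SD, n = 3 for each value). The fresh means of MUC4 and MUC1 were carried by replicate 2, since the fresh libraries were at 48.1, 185 and 28.0 FPKM for MUC4 and at 35.8, 116 and 31.8 FPKM for MUC1.

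Because the fold changes of the mucins differed in sign, their relative mRNA levels were compared within each library, where library scaling cancels. This comparison was chosen after the values were seen and was not tested. MUC16 was left out, and the RNA-seq data hold no measure of mucin protein. The FPKM values rest on 1 length per gene, 2509 bases for MUC1 and 11755 bases for MUC4. The ratio of MUC4 to MUC1 in FPKM was 1.34, 1.597 and 0.881 in the fresh libraries and 0.385, 0.169 and 0.152 in the preconditioned libraries. The groups did not overlap, including fresh replicate 2, which had high values of both genes. The mean ratio was 1.27 ± 0.363 and 0.235 ± 0.130 (SD, n = 3 each), 5.42 times higher in the fresh group, and the closest libraries of the 2 groups differed by 2.29 times. The ratio of MUC15 to MUC1 likewise was 0.234, 0.190 and 0.237 in the fresh libraries and 0.0549, 0.0266 and 0.0182 in the preconditioned libraries.

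Of the summed FPKM of MUC1, MUC4, MUC15 and MUC20, MUC1 made up 37.8% ± 4.35 in fresh and 72.8% ± 8.39 in preconditioned LSCs (SD, n = 3 each). MUC4 made up 47.1% ± 9.13 and 16.4% ± 6.87. The sum itself was 101, 331 and 74.2 FPKM in the fresh libraries and 139, 129 and 78.3 FPKM in the preconditioned libraries. The sums of the groups overlapped, while the shares of MUC1, MUC4 and MUC15 did not overlap. The share of MUC20 overlapped, at 8.58%, 2.38% and 9.39% against 9.12%, 6.86% and 9.46%. With MUC21 added to the sum, MUC1 made up 34.4% ± 4.39 in fresh and 57.7% ± 10.8 in preconditioned LSCs, MUC4 made up 42.9% ± 8.23 and 12.6% ± 4.22, and MUC21 made up 8.90% ± 1.55 and 21.2% ± 6.64 (SD, n = 3 each).

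**Figure D3:**
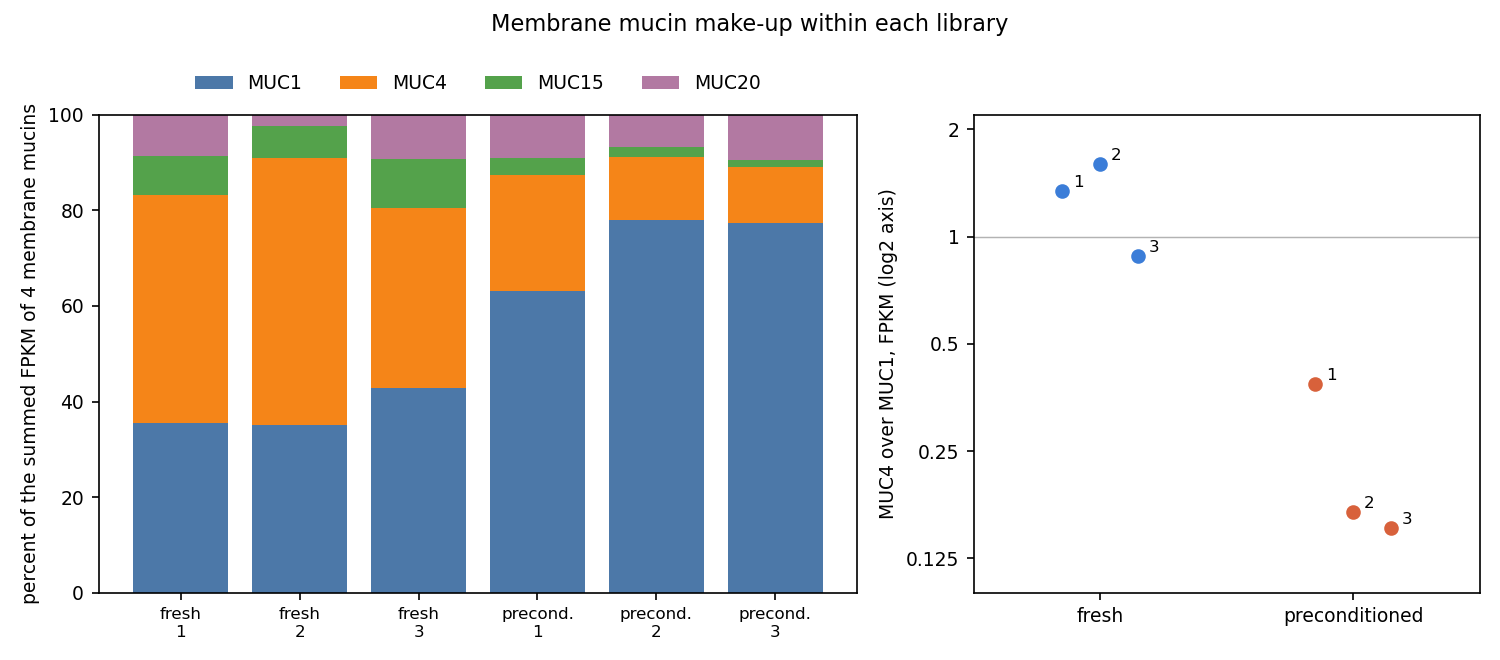
Left, the share of MUC1, MUC4, MUC15 and MUC20 in their summed FPKM in each library, as stacked bars in percent. Right, the ratio of MUC4 to MUC1 in FPKM per library on a log2 axis, with replicate numbers. Every preconditioned library lies at or below 0.385 and every fresh library at or above 0.881.

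MUC16, a very large membrane mucin, had almost no counts under its listed identifier. It had 1, 2 and 0 counts in the fresh libraries and 1, 0 and 0 in the preconditioned libraries. A library at 0 allows up to 3 counts, which is 0.0820 to 0.0987 CPM, so no fold was given. The length used for its FPKM was 6877 bases, and the current RefSeq list carries this identifier as LOC100352724 without the symbol MUC16. The gene model may be partial, so these counts do not show whether MUC16 was expressed.

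SPDEF, the transcription factor of goblet cell differentiation, had 4, 5 and 14 counts in the fresh libraries and 1, 8 and 4 in the preconditioned libraries, and was too low to be tested. AGR2 had 54, 107 and 71 counts in the fresh libraries, and 93, 8 and 65 in the preconditioned ones. In CPM these were 1.56, 3.01 and 1.94 against 2.83, 0.256 and 2.14, so that preconditioned replicate 2 stood below all other libraries. The log2 fold change of AGR2 was −0.32 with a confidence interval from −2.07 to 1.43 (edgeR, adjusted p = 0.80), and it turned to 0.20 without preconditioned replicate 2.

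Other genes of the goblet cell program were read from a list. Of 18 listed genes, SPDEF and AGR2 included, 13 were in the table and 6 were tested, and none of the 6 was called (median log2 fold change −0.25, against 0.01 over all tested genes). TFF3, AGR3 and ZG16 had at most 1 count in any library. KRT7, a keratin shared with other conjunctival cells, was by far the most abundant of the list at 388 to 1199 CPM. XBP1, a factor of secretory cells, was at 111 to 139.7 CPM in fresh LSCs and 77.4 to 105 CPM in preconditioned LSCs, without overlap (edgeR, log2 fold change −0.40, adjusted p = 0.13). Gel-forming mucins had no row under their symbols, but 12 genes without a symbol were described as mucins. Of these, 7 had at most 3 counts in every library, 3 were tested and none was called, with 148 as the highest count. LOC127486944, described as mucin-5AC, had 25, 32 and 59 counts in the fresh libraries and 24, 17 and 6 in the preconditioned libraries. LOC127488664, described as mucin-5AC-like, lay in the other direction, with 22, 36 and 28 counts against 27, 55 and 71. LOC127485847, described as mucin-2, had 26, 52 and 148 counts against 27, 18 and 22. Near-identical copies may have shared reads among such genes.

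Of 14 other mucins listed, 6 were in the table and 2 were tested. MUC21, a membrane mucin of stratified epithelia, was at 19.1, 47.7 and 9.70 CPM in the fresh libraries and at 93.4, 63.2 and 23.6 CPM in the preconditioned libraries. The groups overlapped through fresh replicate 2 and preconditioned replicate 3. Its log2 fold change was 1.24, with a confidence interval from −0.38 to 2.85 (edgeR, adjusted p = 0.26). It was 2.06 without fresh replicate 2 and 0.75 without preconditioned replicate 1. EMCN, the endothelial mucin endomucin, was at 0.578 to 3.74 CPM with overlapping groups. MUC12, MUC13, MUC17 and MCAM did not pass the filter.

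Of 9 listed galectins, 8 were in the table and 5 were tested, and LGALS3 alone was called (median log2 fold change 0.77). LGALS7, the galectin of stratified epithelia, was at 1.91, 0.984 and 3.72 CPM in the fresh libraries and at 18.8, 11.7 and 7.21 CPM in the preconditioned libraries, without overlap. Its log2 fold change was 2.51 with a standard error of 0.55, and its adjusted p of 0.0505 from edgeR fell just short of the cutoff. Under 8 of 15 alternatives it was called, with DESeq2 among them (adjusted p = 3.5e-05). LGALS7 was not called with the replicate block (edgeR, adjusted p = 0.11). The same held without any single library other than preconditioned replicate 1 (edgeR, adjusted p = 0.080 to 0.15). LGALS1 was at 36.1 to 51.0 CPM and at 40.8, 110.45 and 64.0 CPM (edgeR, log2 fold change 0.77, adjusted p = 0.19). LGALS8, a galectin with a pair of carbohydrate-binding domains, was at 92.2 to 124 CPM and 95.7 to 119 CPM. The confidence interval of its log2 fold change ran from −0.30 to 0.39. LGALS9 was at 14.7, 84.3 and 17.8 CPM and at 18.7, 10.2 and 0.856 CPM. Like MUC4 and MUC1, it was highest among the fresh libraries in replicate 2, and its log2 fold change was −1.97 (edgeR, adjusted p = 0.26), or −0.71 without that library.

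Among 12 genes in the table that anchor mucins to the cytoskeleton or cleave proteins from the cell surface, ADAM9 and MMP7 were called higher and none was called lower (median log2 fold change 0.02), where 1.08% of all tested genes were called higher. ADAM9, a membrane-bound metalloprotease, was at 497, 397 and 571 CPM in the fresh libraries and at 884, 1312 and 1147 CPM in the preconditioned libraries. Its log2 fold change was 1.19 with a standard error of 0.20 (edgeR, adjusted p = 0.035). MMP7, or matrilysin, was at 0.666, 1.15 and 0.547 CPM and at 6.81, 4.73 and 4.74 CPM, a log2 fold change of 2.78 with a standard error of 0.39 (edgeR, adjusted p = 0.028). Neither gene had overlapping groups, and both calls were lost with the replicate block (edgeR, adjusted p = 0.087 and 0.076) and without any single library other than preconditioned replicate 1.

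Of the other proteases and anchors in this list, none was called. TMPRSS4, a transmembrane serine protease, was at 241, 242 and 237 CPM in the fresh libraries and at 509, 428 and 285 CPM in the preconditioned libraries, with a log2 fold change of 0.76 (edgeR, adjusted p = 0.066). ADAM17, the sheddase of many surface proteins, was at 103 to 109.5 CPM and 105 to 123 CPM, and ADAM10 was at 229 to 243 CPM and 219.8 to 257 CPM. Ezrin (EZR), which ties the tails of membrane proteins to actin, was at 676 to 742 CPM and 558 to 750.5 CPM (confidence interval of the log2 fold change from −0.42 to 0.25). Moesin (MSN) was at 581 to 683 CPM and 560.4 to 703 CPM.

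**Figure D4:**
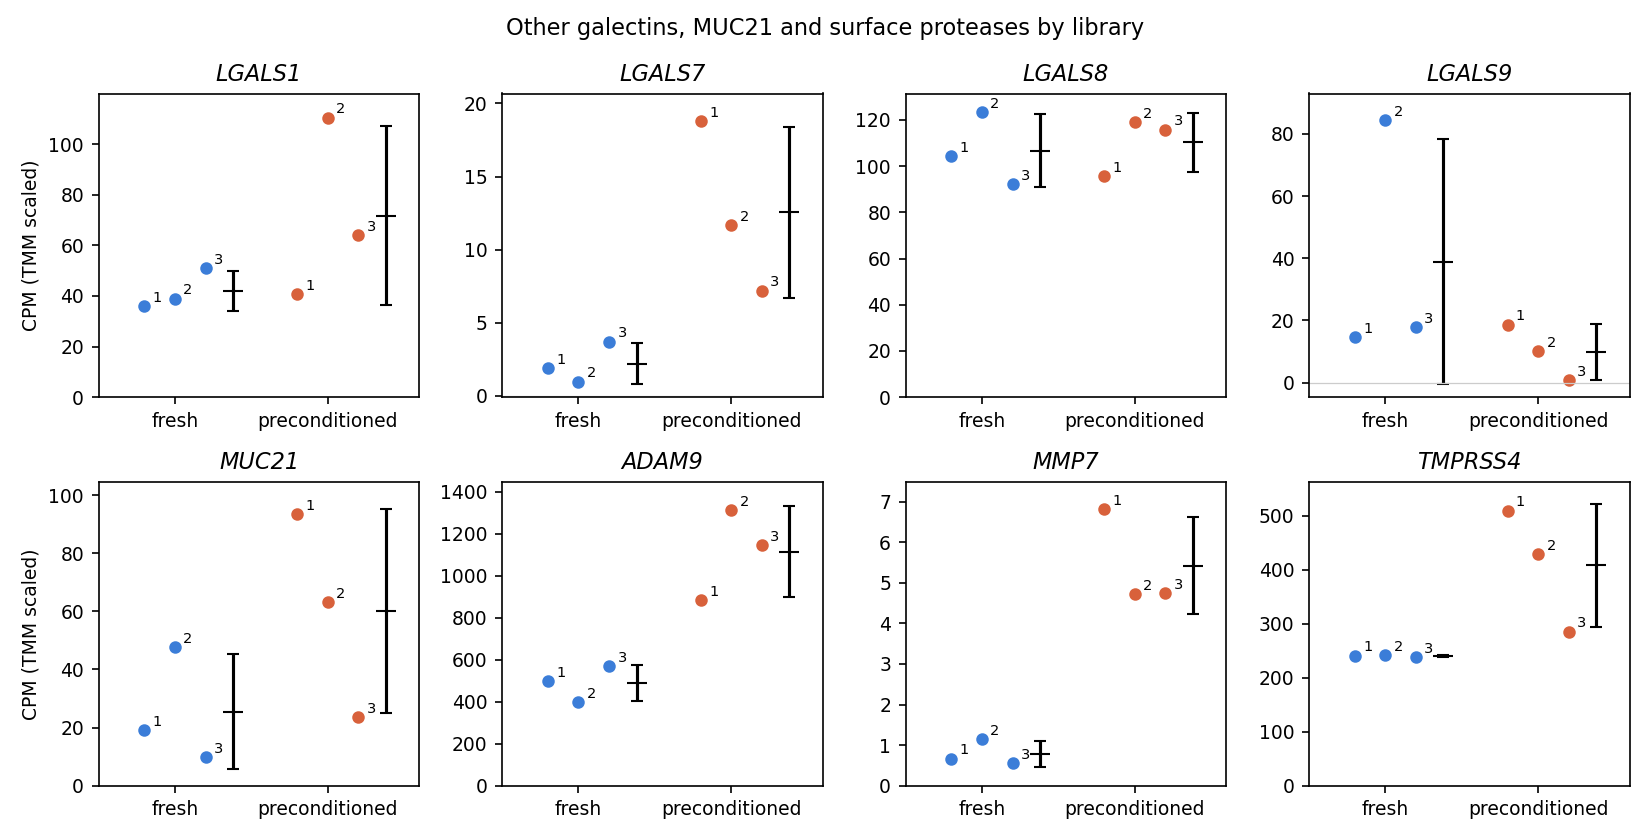
CPM after TMM scaling for 4 other galectins, MUC21 and 3 surface or secreted proteases, on linear axes. Each point is 1 library with its replicate number, and the black bar is the group mean ± SD (n = 3). LGALS7, ADAM9, MMP7 and TMPRSS4 are higher in each preconditioned library than in any fresh library, whereas the groups overlap for LGALS1, LGALS8, LGALS9 and MUC21. The genes shown were picked from longer lists, and 17.9% of all tested genes were separated in this higher direction.

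None of the 33 tested enzymes and transporters of O-glycosylation was called, 18 of them with a positive and 15 with a negative log2 fold change (median 0.03). The largest absolute value was that of GCNT1, which branches the core glycan of mucins. GCNT1 was at 6.17, 7.56 and 2.60 CPM in the fresh libraries and at 1.92, 1.41 and 2.47 CPM in the preconditioned libraries (edgeR, log2 fold change −1.49, adjusted p = 0.082), and DESeq2 called it. B4GALT1, which adds galactose to growing glycans, had the lowest adjusted p of the list. It was at 281, 278 and 266 CPM in fresh LSCs and at 196, 195 and 179 CPM in preconditioned LSCs. The groups were tightly separated, but the log2 fold change of −0.53 was below the cutoff on size (edgeR, adjusted p = 0.039). ST6GALNAC1, which sialylates the first sugar of the chain, was at 199 to 245 CPM and 229.6 to 323 CPM (edgeR, adjusted p = 0.31).

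Of 12 epithelial transcription factors, 11 were tested and none was called. GRHL2, a regulator of epithelial junctions, was at 81.7, 82.7 and 62.9 CPM in the fresh libraries and at 59.1, 37.8 and 35.6 CPM in the preconditioned libraries (edgeR, log2 fold change −0.78, adjusted p = 0.073). ELF3, an epithelium-specific ETS factor of the same family as SPDEF, was at 142, 221 and 155 CPM and at 233, 299 and 295 CPM (edgeR, log2 fold change 0.68, adjusted p = 0.075). The groups did not overlap for either factor. Over the lists of mucins, galectins, goblet cell genes, glycosylation enzymes, anchors and sheddases, and transcription factors, without the 8 members, 67 different genes were tested and 2 were called (edgeR), against 2.29% of all tested genes. Markers that stand in none of these lists, such as COL1A1, are not in this count.

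Conjunctival epithelial markers were read as a check on the source of the mucins. Of 7 listed, 6 were tested and none was called. KRT13 was at 8.26, 20.6 and 8.77 CPM in the fresh libraries and at 61.0, 8.95 and 3.92 CPM in the preconditioned libraries, and KRT4 was at 2.202, 13.0 and 3.14 CPM and at 44.2, 4.73 and 1.55 CPM. The summed level of the 6 markers was 3540, 5146 and 2880 CPM in the fresh libraries and 5111, 3173 and 2589 CPM in the preconditioned libraries. Most of this sum was KRT19 (1400 to 3869 CPM), KRT7 (388 to 1199 CPM) and KRT8 (224 to 674 CPM). Fresh replicate 2 was the highest fresh library for all 6 markers except KRT7, and it was also the highest fresh library for MUC1, MUC4, MUC15 and MUC21. Preconditioned replicate 1 was the highest preconditioned library for KRT13, KRT4, KRT19 and AQP5, but not for KRT7 and KRT8, and it had the highest MUC20 and MUC21 of all libraries. Whether conjunctival cells contributed to those values was not tested.

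The genes most similar to each member over the 6 libraries were named by Pearson's r of log2 CPM, as a description of libraries that also share the group difference. For MUC4 these were TAPBP (r = 0.989) and IL32 (r = 0.985), and for MUC15 they were SETBP1 (r = 0.995) and MSH3 (r = 0.993). GPR85 (r = 0.978) and IL10RB (r = 0.977) came closest to MUC1, and SREK1IP1 (r = 0.994) and TRMT112 (r = 0.992) to MUC20. For LGALS3 they were GOLT1B (r = 0.998) and YOD1 (r = 0.998), and for AGR2 they were PMVK (r = 0.992) and SCRIB (r = 0.989).

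**Figure D5:**
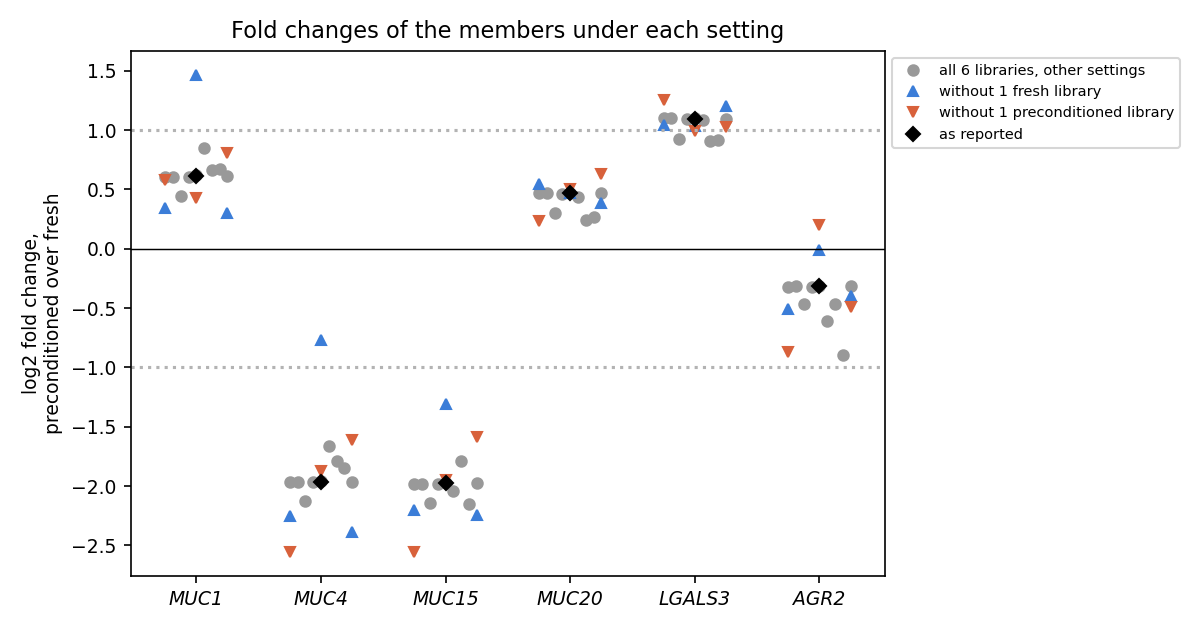
Log2 fold changes of the 6 tested members, as reported (black) and under 15 alternatives, of which 6 leave out 1 library each. MUC4 ranges from −2.55 to −0.77, MUC1 from 0.30 to 1.47 and LGALS3 from 0.91 to 1.25, with the value without fresh replicate 2 as the uppermost point of MUC1 and MUC4. Dotted lines mark the cutoffs of −1 and 1.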

How the data were processed

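RNA-seq libraries of primary limbal stem cells (LSCs) from 3 fresh and 3 preconditioned rabbit limbal cultures were analysed. The counts per gene were deposited by the authors without normalization, after alignment with hisat2 and counting with htseq-count. The authors also deposited FPKM values, which scale each count by the library total and by 1 length per gene. The genome build, annotation and strand setting are not given in the sources used here. In R 4.3.3, edgeR 4.0.16 was run with filterByExpr, TMM scaling and the robust quasi-likelihood test, with condition as the only factor. P values were adjusted over all tested genes by the Benjamini-Hochberg method, and genes were called at an adjusted p of at most 0.05 with a log2 fold change of 1 or more in size. The study itself used DESeq2, which was tried here as an alternative (DESeq2 1.42.0). The other alternatives were library size or DESeq2's size factors for scaling, a looser and a stricter filter, a replicate block, removal of 1 library at a time, and limma 3.58.1 on log2(FPKM + 1) and log2(FPKM + 0.1), as well as no fold change cutoff. The fits were tested on simulated data. At 31952352 to 34327534 counts per library, counting error matters only for genes with few counts, and a group at or under 3 counts per library was given no fold. Standard errors came from the F statistic.

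The genes, lists and tests were chosen with earlier results of these data known. By the rule for named genes, all 8 members are given, then from each list the called genes, up to 4 of the most abundant and those with the smallest adjusted p, and for each member at 1 CPM or more the 2 most similar genes. Members were matched by symbol, and RefSeq's gene list for mOryCun1.1 was used for names and neighbours only. Replicates are separate samples in the records, but which animal each came from is not stated, so p values measure the spread between these samples.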

Additional observations from a re-analysis of the deposited data

How the results depend on the processing

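Against 344 called genes (163 higher, 181 lower), there were 1190 (553 higher, 637 lower) with DESeq2 at its defaults (on all 22190 genes, so that test, scaling and filter changed together), 565 (142 higher, 423 lower) with library size alone, 30 with the replicate block, 763 without a fold change cutoff, 521 (123 higher, 398 lower) with limma on log2(FPKM + 0.1), and 14 to 1546 when 1 library was left out. Limma on log2(FPKM + 1) called 257 (75 higher, 182 lower). The count of called members was 1 as reported, 2 with DESeq2 (LGALS3 and MUC15), and 0 with library size alone, the replicate block and both limma fits. It was 0 to 1 with 1 library left out, and 1 only without preconditioned replicate 1. In the other lists 2 genes were called as reported, 4 with DESeq2, 0 with the replicate block and 0 to 6 with 1 library left out, the highest without preconditioned replicate 1. AGR2 ranged from −0.87 to 0.20 on the log2 scale with 1 library left out, and changed sign without preconditioned replicate 2. MUC1, MUC4, MUC15, MUC20 and LGALS3 kept their direction under all 15 alternatives. Libraries of the same replicate number did not deviate together (r = −0.067, −0.073 and −0.109 across genes), so the numbers were not taken as pairs. The cause of these changes was not tested. SPDEF and MUC16 entered only the fits without the count filter, DESeq2 included, and were not called there.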

Other observations

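Some surface genes varied more within the fresh group than any tested member did. FCGBP, a mucus-associated protein of goblet cells, was at 1.51, 18.8 and 0.492 CPM in the fresh libraries and at 15.3, 5.34 and 1.94 CPM in the preconditioned libraries. The highest fresh library was 38.2 times the lowest. AQP5, a water channel of glands and surface epithelia, was at 1.71, 14.3 and 1.37 CPM and at 11.5, 2.01 and 5.56 CPM. MUC12, a membrane mucin, had 9, 81 and 2 counts in the fresh libraries and 7, 2 and 0 in the preconditioned libraries. Fresh replicate 2 was the highest fresh library for all of these genes.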
